A study of Homo sapiens with 16 samples.

Results

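The genes described here are 40 genes of DNA replication and S phase, taken by symbol from the 78894 genes of a table of read counts. They cover origin licensing (MCM2 to MCM7, CDC6, CDT1 and GMNN), helicase activation (MCM10, CDC45 and GINS1 to GINS4), the replicative polymerases and primase (POLA1, POLA2, POLD1, POLE and PRIM1), the sliding clamp, its loader and lagging-strand enzymes (PCNA, RFC2 to RFC5, FEN1 and LIG1), nucleotide supply (RRM1, RRM2, TYMS and TK1), G1/S regulators (E2F1, E2F2, CCNE1 and CCNE2), and chromatin, histone and repair factors of the fork (CHAF1A, CHAF1B, UHRF1, SLBP and UNG). After a low-count filter, 39 of the 40 were among the 16790 genes tested. E2F2 was not, with at most 0.175 CPM (counts per M counts of a library) in any library. The members were chosen by function, with earlier results of these data known.

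All libraries came from MCF10DCIS.com cells, which come from the breast line MCF10A and are used to model ductal carcinoma in situ, a stage before invasive cancer. All groups descend from 1 clone whose PCSK5 gene, which encodes a proprotein convertase, had been knocked out with a guide against exon 4 and which was recovered in 10 ng/ml GDF11, after 200 nM Shield-1 to stabilise the Cas9 protein. PCSK5 with a V5 tag, driven by a promoter that tetracycline controls, was put back into this clone. Each allele is represented by 1 polyclonal, hygromycin-selected line, so the allele and the line cannot be told apart. The groups were the T288P allele with 250 ng/ml recombinant mature GDF11 throughout (T288P+GDF11), the M452I allele, the T288P allele, and the wildtype allele (WT), with 4 wells each. All wells were seeded with 5000 cells on matrigel in medium with 2% matrigel and 5 ng/ml EGF, received doxycycline at 1 µg/ml starting on day 4 and were collected on day 8. GDF11 belongs to the TGF-beta family of secreted ligands, and the T288P and M452I alleles carry an amino acid change in the enzyme. P-values measure the spread between wells of a line and not between independently made lines.

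Before S phase, ORC, CDC6 and CDT1 load the MCM2 to MCM7 helicase onto origins, a step that geminin (GMNN) blocks once replication has begun. CDC45, the GINS complex and MCM10 then turn the loaded helicase into a moving fork, where DNA polymerase alpha with primase starts each strand and polymerases delta and epsilon extend it on the PCNA clamp. The genes of these proteins are classical targets of E2F factors, whose activity RB restrains until G1 cyclins and their kinases release it, and in many epithelial cells TGF-beta family ligands that signal through SMAD2 and SMAD3 slow this transition.

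Libraries held 28.5 to 50.8 M counts, and 21777 to 25335 genes had a count. In 2 untreated wells the profile stood apart from that of their group. On the first principal component of the tested genes, which held 37.0% of the variance, M452I replicate 4 scored 26.6 against -30.2 to -24.6 in the other M452I wells, T288P replicate 1 scored -30.3 against -0.49 to 6.29 in the other T288P wells, and the T288P+GDF11 wells scored 31.5 to 46.9. Ribosomal protein genes took 9.26% of the counts of M452I replicate 4 against 12.7% to 13% in the other M452I wells. PCSK5 averaged 40.8 ± 10.7 CPM in T288P+GDF11, 39.5 ± 19.3 in M452I, 37.7 ± 13.5 in T288P and 45.4 ± 12.04 in WT (SD, n = 4 each), so transcripts of the gene were present in each line. Reads of the edited locus and of the reintroduced copy are counted together. All 10 markers of basal breast epithelium passed the filter, with summed levels of 8865 to 12157 CPM. Of the other cell types checked, 2 of 7 fibroblast, 2 of 6 immune and 2 of 5 endothelial markers passed, COL3A1 and LUM had no count in any library, and each of these 3 lists summed to at most 8.43 CPM. The endothelial sum was 2.12 to 3.53 CPM in T288P+GDF11 wells and 0.498 to 0.928 CPM in T288P wells, and its part in any result was not tested. Of 7 markers of hormone-responsive luminal cells 5 passed, and they summed to more than these lists, at 638 to 820 CPM in T288P+GDF11, 721 to 1440 in M452I, 880 to 1392 in T288P and 1131 to 1449 in WT. FOXA1 and KRT18 were called lower in T288P+GDF11 against T288P, and FOXA1, KRT8 and KRT18 against WT, with ESR1 and PGR not among the genes tested. That is 40% of the 5 tested luminal markers against T288P and 60% against WT, where 12.9% and 28.9% of all tested genes were called. The 10 basal markers also gave calls, 1 higher and 3 lower against T288P (40%) and 1 higher and 2 lower against WT (30%). The KRT18 call against T288P was lost under 9 of 18 alternatives. The part of these marker shifts in the results on the members was not tested.

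The promoters of the members were read from RefSeq (GRCh38.p14), which gave a window of 250 bases before and 50 after the gene start for 36 of the 40. Each window was searched on both strands for E2F motifs (TTTCCCGC, TTTCGCGC, TTTGCCGC or TTTGGCGC), for the CCAAT box, and for the CHR motif of genes expressed in G2 and mitosis (TTTGAA or TTCGAA). These 3 sets of letters do not share a match, but E2F matches on opposite strands can overlap each other. An E2F match lay in 19 of the 36 windows (52.8%), against 3.33% of all 27305 windows of that length. A CCAAT box lay in 19 (52.8%, against 35.7% of all windows) and both lay in 11 (30.6%, against 1.29%). The CHR motif lay in 2 windows, those of MCM6 and RRM1 (5.56%, against 16.6%). In 24 genes of G2 and mitosis searched the same way the E2F motif lay in 12.5% and the CHR motif in 79.2%. The 4 promoters whose genes were called with GDF11 are shown first, followed by MCM2, which was not called, with E2F and CCAAT matches in capitals, 5′ to 3′ on the strand of the gene.
MCM3: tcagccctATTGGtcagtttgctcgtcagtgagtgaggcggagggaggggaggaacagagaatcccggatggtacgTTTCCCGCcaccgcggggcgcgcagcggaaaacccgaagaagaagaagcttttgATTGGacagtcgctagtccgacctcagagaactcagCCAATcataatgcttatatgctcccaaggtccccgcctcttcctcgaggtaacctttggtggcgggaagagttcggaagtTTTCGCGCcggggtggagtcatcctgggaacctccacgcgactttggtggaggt
MCM10: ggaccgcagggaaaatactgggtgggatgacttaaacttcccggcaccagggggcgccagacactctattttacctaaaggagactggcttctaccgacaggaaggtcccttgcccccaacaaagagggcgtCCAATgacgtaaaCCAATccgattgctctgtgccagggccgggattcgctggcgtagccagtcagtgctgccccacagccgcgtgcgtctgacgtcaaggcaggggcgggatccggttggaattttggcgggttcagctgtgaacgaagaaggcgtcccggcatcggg
PCNA: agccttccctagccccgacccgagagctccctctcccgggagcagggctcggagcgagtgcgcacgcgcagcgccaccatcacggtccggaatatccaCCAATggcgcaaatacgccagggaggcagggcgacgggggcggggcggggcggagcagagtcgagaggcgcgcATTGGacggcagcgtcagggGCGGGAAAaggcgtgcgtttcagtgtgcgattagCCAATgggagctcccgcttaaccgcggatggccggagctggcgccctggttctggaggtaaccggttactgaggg
RRM2: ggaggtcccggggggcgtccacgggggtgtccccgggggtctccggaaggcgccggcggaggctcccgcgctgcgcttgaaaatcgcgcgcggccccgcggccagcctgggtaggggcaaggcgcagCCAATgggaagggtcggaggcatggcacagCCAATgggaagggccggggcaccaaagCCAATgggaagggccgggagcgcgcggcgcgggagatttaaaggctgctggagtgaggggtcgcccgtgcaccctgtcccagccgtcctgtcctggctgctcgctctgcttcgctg
MCM2: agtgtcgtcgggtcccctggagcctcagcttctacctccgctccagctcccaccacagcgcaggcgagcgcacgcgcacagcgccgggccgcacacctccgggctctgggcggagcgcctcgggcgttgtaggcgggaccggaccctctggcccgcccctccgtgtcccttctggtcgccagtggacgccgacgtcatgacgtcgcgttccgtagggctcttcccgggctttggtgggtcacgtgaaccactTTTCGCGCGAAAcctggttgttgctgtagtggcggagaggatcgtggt

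The windows are chr6:52284693-52284992, minus strand for MCM3; chr10:13161308-13161607, plus strand for MCM10; chr20:5126573-5126872, minus strand for PCNA; chr2:10122489-10122788, plus strand for RRM2; and chr3:127598161-127598460, plus strand for MCM2. MCM3 held 2 E2F matches and 3 CCAAT boxes, and PCNA 1 and 3. MCM10 held no match to these E2F letters and 2 CCAAT boxes, and RRM2 none and 3, so the letters did not separate genes that moved up from the gene that moved down. MCM2 held 2 overlapping E2F matches, 1 on each strand, and no CCAAT box. Other members that were not called with GDF11 against T288P held as many as MCM3 and PCNA. MCM7 held 2 E2F matches and 3 CCAAT boxes, and CDC6 1 and 3. A match describes the letters of the window and not a bound site. The RefSeq starts used for the windows can differ from the GENCODE gene spans given below. For RRM2 the window lies inside its GENCODE span, chr2:10120698-10131419.

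As a sum, the 40 genes took a similar part of the RNA in all 4 conditions. Summed TMM-scaled CPM was 551 ± 19.2 in T288P+GDF11, 569 ± 36.0 in M452I, 560 ± 23.0 in T288P and 556 ± 33.6 in WT (SD, n = 4 each). The largest difference between groups was smaller than the SD of M452I, which includes replicate 4 at 518 CPM against 569 to 596. RRM1 and RRM2 hold a large part of the sum, at 95.5 and 92.7 CPM in WT and 82.8 and 51.2 in T288P+GDF11. A similar sum therefore does not show that the other members stayed level. Per kb of exon, the most abundant member in WT was RRM1, the large subunit of ribonucleotide reductase, at 22.9 CPM per kb, followed by RRM2 at 17.4, the uracil-DNA glycosylase UNG at 12.3, the histone mRNA-binding protein SLBP at 11.0 and the clamp loader subunit RFC4 at 8.42. The lowest tested members per kb in WT were CCNE2 at 0.16, E2F1 at 0.19 and MCM10 at 0.29. These are bulk libraries, in which fewer cells in S phase and less RNA per cell cannot be told apart.

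**Figure D1:**
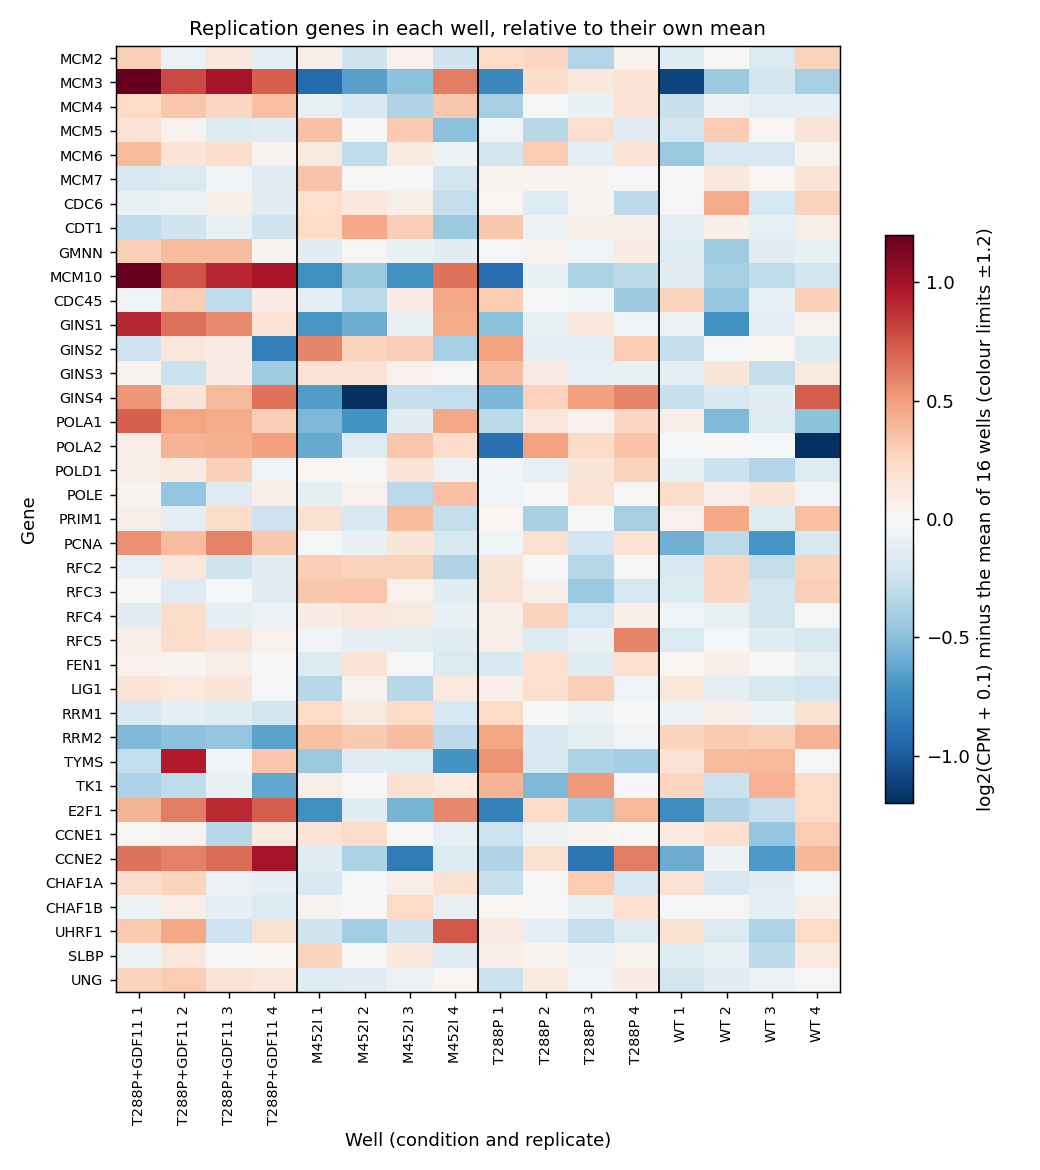
Level of each of the 39 tested members in each well (columns, by condition and replicate), as log2(CPM + 0.1) minus the mean of that gene over the 16 wells, in log2 units on a colour scale limited to ±1.2. MCM3 and MCM10 are highest in the 4 T288P+GDF11 wells, followed by M452I replicate 4, and RRM2 is lowest in the same 5 wells. T288P replicates 2, 3 and 4 also lie slightly above the mean for MCM3 and slightly below it for RRM2.

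With GDF11, 3 members were called higher and 1 lower, a share near that of all tested genes. Against T288P without GDF11, MCM10, MCM3 and PCNA rose and RRM2 fell (edgeR quasi-likelihood test, Benjamini-Hochberg adjusted p under 0.05), and 35 of 39 members did not pass. That is 10.3% of the members, against 12.9% of all tested genes, so replication genes as a group were not called more often than other genes. In the direction of higher levels it is 3 of 39 members against 5.07% of all tested genes, and in that of lower levels 1 of 39 against 7.88%. An unadjusted p under 0.05 was found for 10 members, against 28.3% of all tested genes. The median log2 fold change of the 39 members was 0.05, against -0.01 over all tested genes. The wells of the groups did not overlap for 12 members, against 22% of all tested genes. Wells were all higher for 8 of the 39 members, against 10.2% of all tested genes, and all lower for 4 of the 39, against 11.8%.

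**Figure D2:**
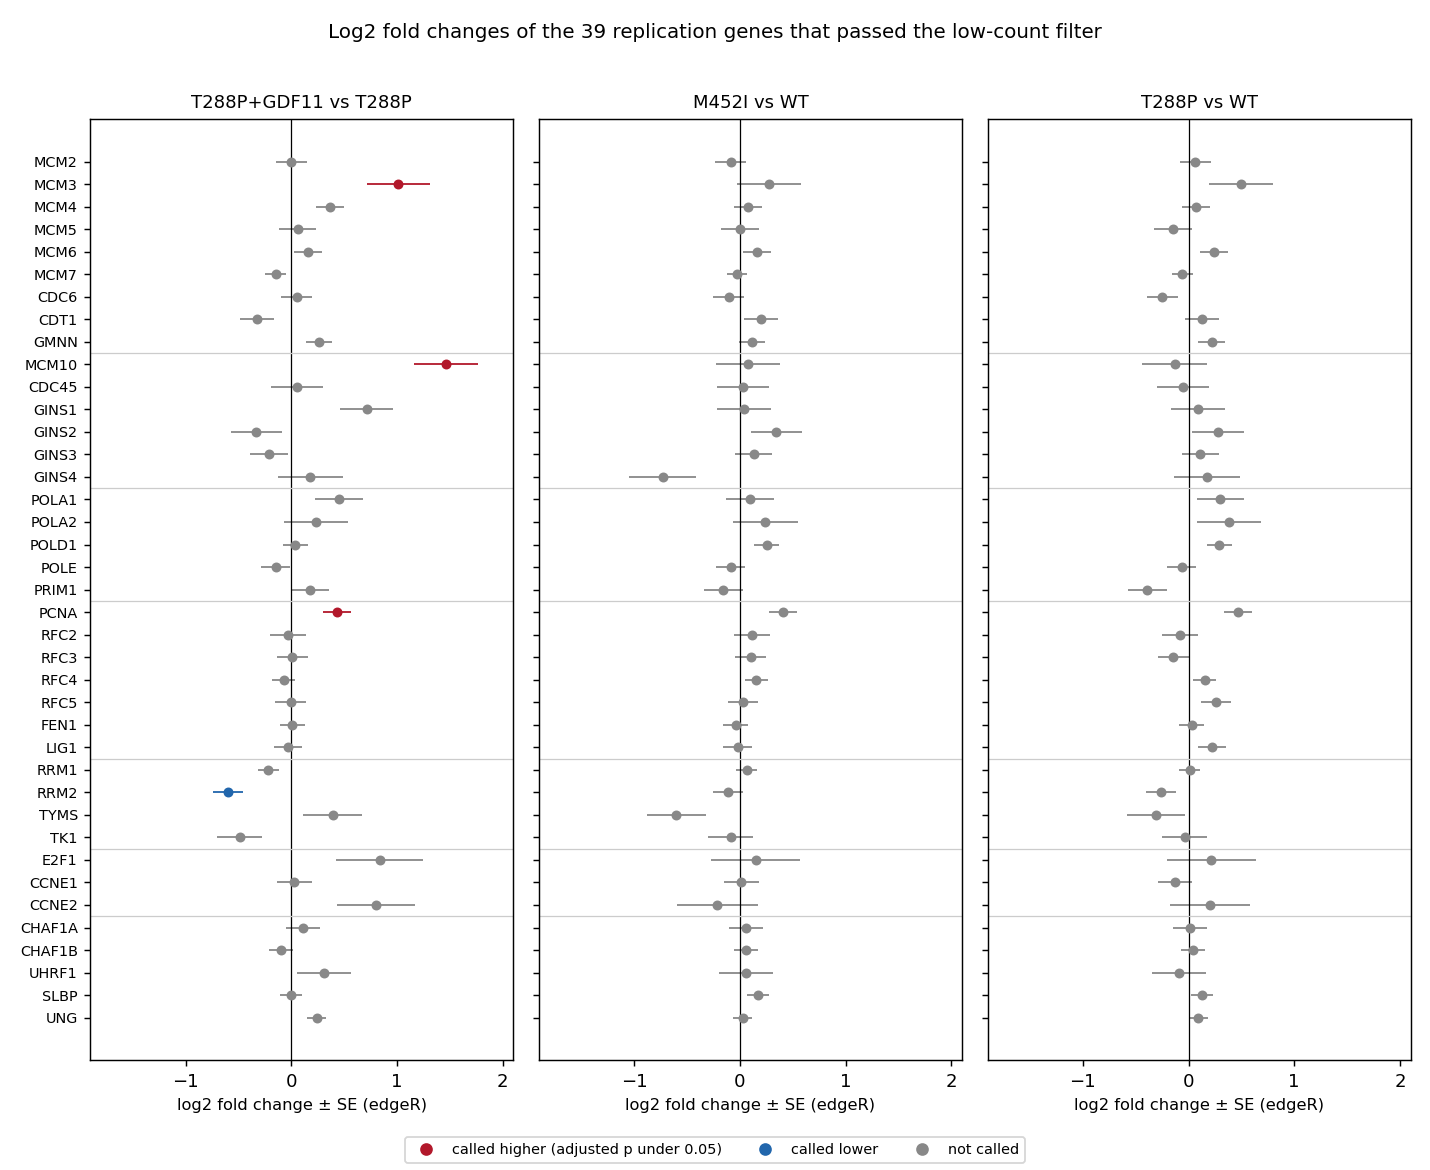
Log2 fold change (horizontal axis) of the 39 tested members (rows, grouped by role) in 3 comparisons, with edgeR values as points and ± SE as lines, red where called higher, blue where called lower and grey where not called. With GDF11, MCM10, MCM3 and PCNA lie to the right and RRM2 to the left, and no member was called for either allele against WT.

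Among the 9 licensing genes, 1 rose with GDF11 and 8 did not pass. MCM3, 1 of the 6 subunits of the helicase ring (ENSG00000112118, chr6:52264009-52284881 on GRCh38), had 20.04, 13.5, 15.5 and 12.8 CPM in T288P+GDF11 wells, 4.03, 4.89, 5.46 and 11.9 in M452I wells, 4.47, 8.99, 8.42 and 8.69 in T288P wells, and 3.56, 5.64, 6.59 and 5.85 in WT wells. All GDF11 wells lay above all untreated wells, of which M452I replicate 4 came nearest and T288P replicate 1 was low for its group. MCM3 was 2.02-fold higher with GDF11 than in T288P (log2 fold change 1.01 with SE 0.30, adjusted p = 0.0335 in edgeR). The call was lost without T288P replicate 1 (log2 fold change 0.84, edgeR adjusted p = 0.108), T288P replicate 3, replicate 1 or 3 of T288P+GDF11, or the low-count filter, with log2 fold changes of 0.83 to 1.12 and adjusted p of 0.000974 to 0.108 over all alternatives.

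None of the other 5 subunits of the ring passed in edgeR (1, MCM4, with an unadjusted p under 0.05). MCM4 had 23.3, 24.9, 23.5 and 25.3 CPM in T288P+GDF11, 18.5, 17.4, 15.4 and 24.7 in M452I, 14.9, 19.6, 18.6 and 22.3 in T288P, and 16.4, 18.9, 18.3 and 18.2 in WT. Its GDF11 wells lay above all T288P wells, but the difference of 0.36 (SE 0.13) did not pass (edgeR adjusted p = 0.0781). MCM2 averaged 16.3 ± 2.15 CPM in T288P+GDF11 and 16.3 ± 2.95 in T288P, a log2 fold change of 0.00 with an interval of -0.29 to 0.29 (1.96 SE). MCM5 averaged 8.72 ± 1.02 and 8.39 ± 1.29 CPM in these groups, MCM6 25.6 ± 2.55 and 22.9 ± 3.91, and MCM7 23.0 ± 1.08 and 25.5 ± 0.53. The log2 fold changes of MCM5, MCM6 and MCM7 were 0.06, 0.15 and -0.15, and the edgeR adjusted p 0.862, 0.476 and 0.342. For MCM7 all GDF11 wells lay below all T288P wells.

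Per kb of exon, MCM3 made up 17.7% ± 2.30 of the summed MCM2 to MCM7 transcripts in T288P+GDF11, 9.01% ± 4.77 in M452I, 10.1% ± 2.38 in T288P and 7.64% ± 1.53 in WT (SD, n = 4 each). The 4 GDF11 wells held 21.0%, 16.3%, 17.7% and 15.98%, and of the untreated wells M452I replicate 4 alone came near, at 15.95%. MCM7 made up 22.2% ± 2.05 in T288P+GDF11, 29.7% ± 4.24 in M452I, 28.3% ± 2.73 in T288P and 31.5% ± 1.70 in WT. The 6 proteins form the ring in equal numbers, while their transcripts ranged in WT from 1.27 CPM per kb for MCM5 to 6.04 for MCM7. The length used is the union of all annotated exons, 7338 bases for MCM5 and 4386 for MCM7, and not that of the transcripts expressed. Levels per kb are therefore uncertain between genes. MCM7 also shares 8.94% of its exon bases with AP4M1 on the opposite strand.

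**Figure D3:**
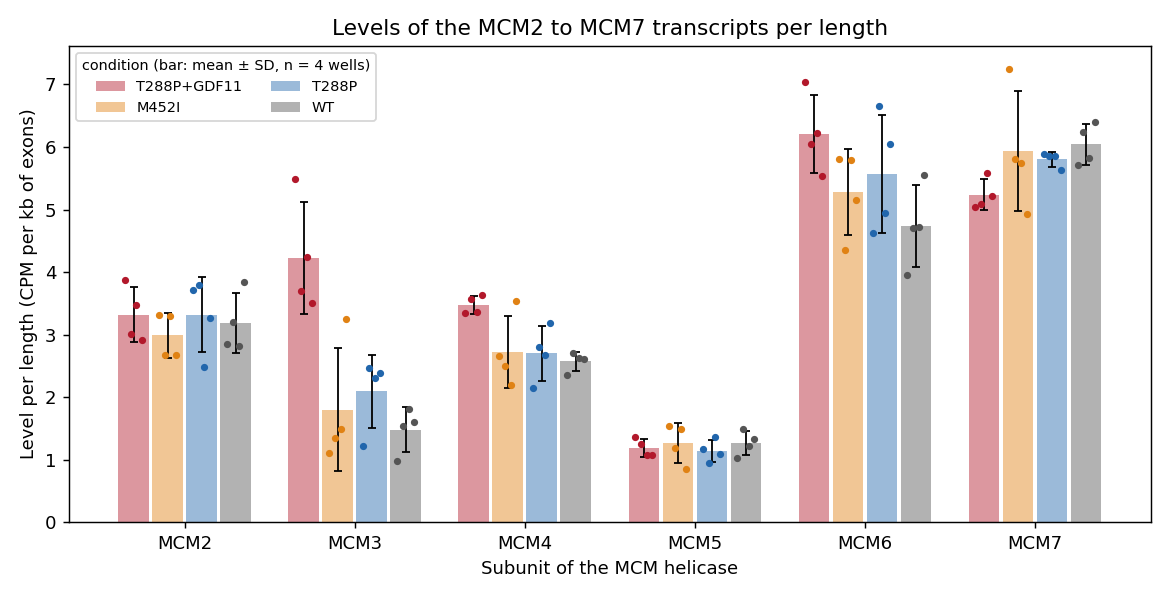
Level of the 6 MCM helicase transcripts per length (vertical axis, CPM per kb of exon) by condition; bars and error bars are mean ± SD of 4 wells and points are wells. MCM3 stands at 4.23 CPM per kb in T288P+GDF11 and 1.48 in WT, while MCM2 stands at 3.32 and 3.18.

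The loading factors and their inhibitor also did not pass. CDC6, the loader ATPase, averaged 9.76 ± 0.59 CPM in T288P+GDF11 and 9.43 ± 1.05 in T288P (log2 fold change 0.05 with SE 0.15, adjusted p = 0.857 in edgeR). CDT1, which brings the MCM ring to CDC6, averaged 7.16 ± 0.47 and 8.99 ± 1.06 CPM (log2 fold change -0.33 with SE 0.16, adjusted p = 0.192 in edgeR), with all GDF11 wells below all T288P wells. GMNN, which binds and blocks CDT1, had 8.86, 9.41, 9.35 and 7.41 CPM in T288P+GDF11, 6.61, 7.28, 6.84 and 6.54 in M452I, 7.13, 7.43, 6.96 and 7.76 in T288P, and 6.48, 5.35, 6.55 and 6.79 in WT. The GDF11 and T288P wells of GMNN overlapped in T288P+GDF11 replicate 4 (log2 fold change 0.26 with SE 0.12, adjusted p = 0.178 in edgeR).

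Of the 6 genes of helicase activation, MCM10 rose and 5 did not pass. MCM10, which binds the assembled helicase and is needed for origin unwinding (ENSG00000065328, chr10:13161554-13211104), had 5.00, 3.26, 3.62 and 3.81 CPM in T288P+GDF11, 1.10, 1.36, 1.10 and 3.02 in M452I, 0.953, 1.78, 1.43 and 1.497 in T288P, and 1.72, 1.40, 1.51 and 1.59 in WT. All GDF11 wells lay above all untreated wells, and M452I replicate 4 was the only untreated well above 1.78 CPM. MCM10 was 2.76-fold higher with GDF11 than in T288P, the largest fold change of any member in this comparison (log2 1.46, SE 0.30, edgeR adjusted p = 0.00466). The call held under all 18 alternatives, with log2 fold changes of 1.32 to 1.62 and adjusted p of at most 0.0213.

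GINS1, a subunit of the 4-protein GINS complex, had 7.83, 6.56, 6.18 and 4.65 CPM in T288P+GDF11, 2.51, 2.72, 3.93 and 5.67 in M452I, 2.92, 3.88, 4.56 and 4.01 in T288P, and 3.93, 2.47, 3.82 and 4.26 in WT. The GDF11 wells lay above the T288P wells and the log2 fold change of 0.71 (SE 0.25) did not pass (edgeR adjusted p = 0.0677). None of the other GINS subunits passed. GINS2 averaged 2.97 ± 0.86 CPM in T288P+GDF11 and 3.75 ± 0.80 in T288P (log2 fold change -0.33, SE 0.24), GINS3 averaged 3.59 ± 0.62 and 4.16 ± 0.67 (-0.21, SE 0.18), and GINS4 averaged 2.77 ± 0.41 and 2.45 ± 0.78 (0.18, SE 0.31), with edgeR adjusted p of 0.401, 0.467 and 0.745. CDC45, which joins GINS on the helicase, averaged 2.40 ± 0.43 and 2.31 ± 0.50 CPM (edgeR adjusted p = 0.914).

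**Figure D4:**
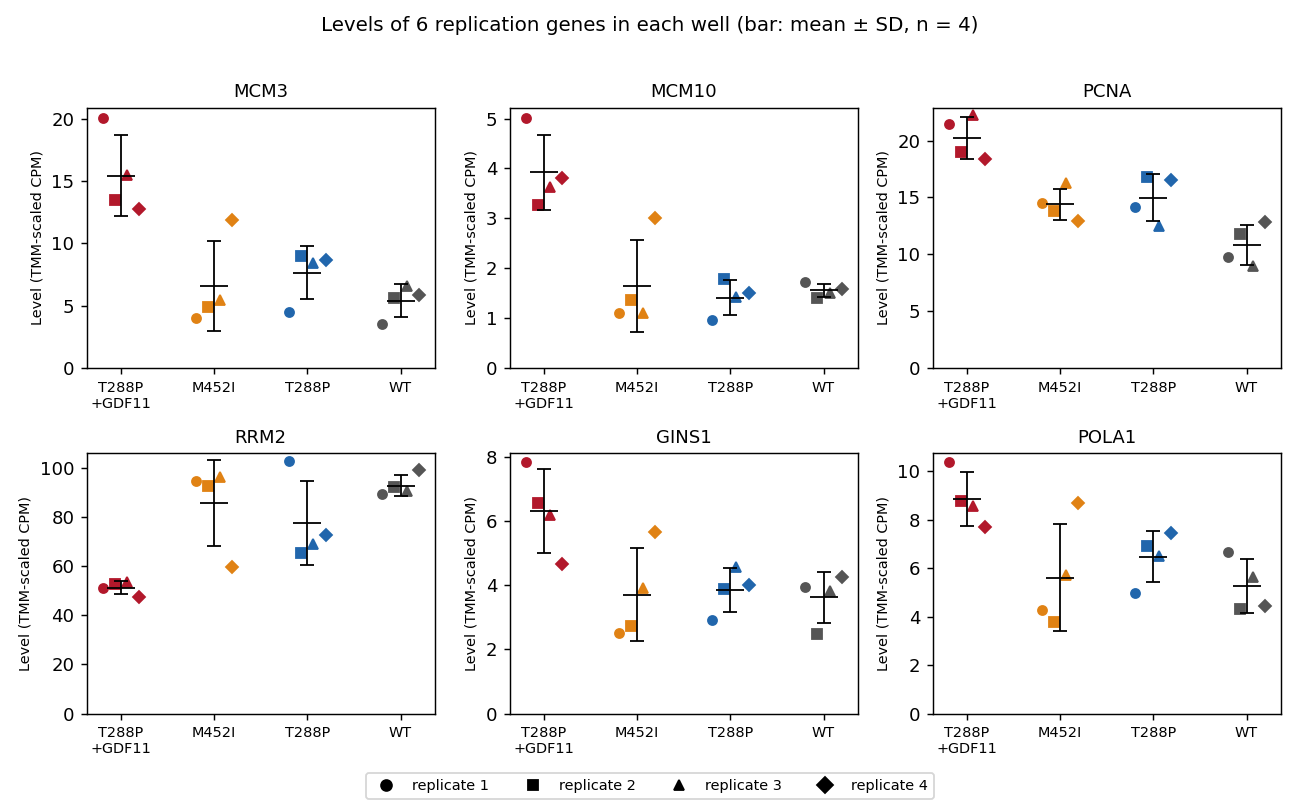
TMM-scaled CPM (vertical axis, from 0) of MCM3, MCM10, PCNA, RRM2, GINS1 and POLA1 in each well, by condition; marker shapes give the replicate, and bars the mean ± SD of 4 wells. For MCM10 the T288P+GDF11 wells sit between 3.26 and 5.00 CPM, above all untreated wells, and for RRM2 between 47.6 and 53.5 CPM, below all untreated wells.

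None of the 5 polymerase and primase genes passed for GDF11 against T288P in edgeR (0 with an unadjusted p under 0.05). POLA1, the catalytic subunit of polymerase alpha, had 10.4, 8.77, 8.56 and 7.72 CPM in T288P+GDF11, 4.28, 3.78, 5.70 and 8.69 in M452I, 4.99, 6.93, 6.51 and 7.46 in T288P, and 6.65, 4.31, 5.62 and 4.42 in WT. The GDF11 and T288P wells did not overlap (log2 fold change 0.45 with SE 0.22, adjusted p = 0.195 in edgeR). POLD1, the catalytic subunit of polymerase delta, had 10.8, 11.0, 12.4 and 9.88 CPM in T288P+GDF11, 10.4, 10.3, 11.4 and 9.71 in M452I, 9.95, 9.51, 11.2 and 12.2 in T288P, and 9.55, 8.50, 7.96 and 9.13 in WT. Its GDF11 wells overlapped those of M452I and T288P and lay above all WT wells. POLA2, the second subunit of polymerase alpha, averaged 5.01 ± 0.61 CPM in T288P+GDF11 and 4.25 ± 1.52 in T288P, POLE of polymerase epsilon 20.1 ± 3.31 and 22.3 ± 1.52, and the primase PRIM1 7.87 ± 1.13 and 6.98 ± 1.13. Their log2 fold changes were 0.23, -0.15 and 0.18, with edgeR adjusted p of 0.654, 0.509 and 0.564. POLA2 shares 35.1% of its exon bases with AP000944.2 on the same strand, so its level is uncertain.

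Of the 7 clamp, clamp loader and lagging-strand genes, PCNA alone rose. PCNA, the ring that holds the polymerases on DNA (ENSG00000132646, chr20:5114953-5126626), had 21.5, 19.0, 22.2 and 18.4 CPM in T288P+GDF11, 14.5, 13.8, 16.2 and 12.9 in M452I, 14.1, 16.8, 12.5 and 16.6 in T288P, and 9.81, 11.7, 8.95 and 12.8 in WT. All GDF11 wells lay above all untreated wells, and the highest WT well lay between the T288P wells. PCNA was 1.35-fold higher with GDF11 than in T288P (log2 fold change 0.43 with SE 0.13, adjusted p = 0.0354 in edgeR). That call was lost under 7 of 18 alternatives, among them without T288P replicate 1 (edgeR adjusted p = 0.0987), T288P replicate 3 or T288P+GDF11 replicate 1 or 3, and with the replicate number as a block, with log2 fold changes of 0.36 to 0.51 and adjusted p of 0.0103 to 0.111 over the alternatives.

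The 4 subunits of the clamp loader, which opens PCNA, were not called in edgeR (0 with an unadjusted p under 0.05). RFC2 averaged 10.4 ± 1.19 CPM in T288P+GDF11 and 10.6 ± 1.44 in T288P, RFC3 14.9 ± 0.80 and 14.8 ± 2.75, RFC4 26.6 ± 3.21 and 28 ± 3.78, and RFC5 9.21 ± 0.49 and 9.27 ± 2.37. Their log2 fold changes lay between -0.07 and 0.01. The flap endonuclease FEN1, which trims Okazaki fragments, averaged 10.7 ± 0.22 and 10.6 ± 1.58 CPM, and the ligase LIG1, which joins them, 10.0 ± 0.56 and 10.2 ± 1.04. The edgeR adjusted p of these 6 genes was 0.695 to 0.98, and their intervals of 1.96 SE all lay between -0.36 and 0.31.

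In nucleotide supply, RRM2 fell and 3 genes did not pass. RRM2, the small subunit of ribonucleotide reductase that is made mainly in S phase (ENSG00000171848, chr2:10120698-10131419), had 51.1, 52.6, 53.5 and 47.6 CPM in T288P+GDF11, 94.5, 92.5, 96.1 and 59.8 in M452I, 103, 65.5, 69.1 and 72.5 in T288P, and 89.2, 92.2, 90.5 and 99.0 in WT. All GDF11 wells lay below all untreated wells, M452I replicate 4 was low for its group, and T288P replicate 1 was high for its group. RRM2 was 1.51-fold lower with GDF11 than in T288P (log2 fold change -0.60 with SE 0.14, adjusted p = 0.0106 in edgeR). Without T288P replicate 1 the log2 fold change was -0.42 and the call was lost (edgeR adjusted p = 0.0539, against 2.62e-05 to 0.0539 over the 18 alternatives).

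RRM1, the large subunit that RRM2 pairs with, averaged 82.8 ± 2.62 CPM in T288P+GDF11, 99.9 ± 13.8 in M452I, 96.3 ± 9.19 in T288P and 95.5 ± 7.95 in WT. Its GDF11 wells lay below all T288P wells (log2 fold change -0.22 with SE 0.10, adjusted p = 0.153 in edgeR). The ratio of RRM2 to RRM1 CPM was 0.618 ± 0.016 in T288P+GDF11, 0.852 ± 0.076 in M452I, 0.798 ± 0.0996 in T288P and 0.973 ± 0.039 in WT (SD, n = 4 each). No GDF11 well exceeded a ratio of 0.636, and no untreated well fell below 0.701. Thymidine kinase TK1 averaged 3.97 ± 0.62 CPM in T288P+GDF11 and 5.60 ± 1.73 in T288P (log2 fold change -0.49 with SE 0.21, adjusted p = 0.136 in edgeR), with overlapping wells. Thymidylate synthase TYMS averaged 3.74 ± 1.53 and 2.86 ± 1.02 CPM (edgeR adjusted p = 0.377) and shares 39.2% of its exon bases with ENOSF1 on the opposite strand, so without a stated strand setting its level is uncertain. Processed pseudogenes of RRM2 took few reads, with 18 counts for RRM2P2 and 8 for RRM2P3 over all libraries against 44493 for RRM2.

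Of the G1/S regulators, E2F1, E2F2 and CCNE2 were low and CCNE1 was not, and none of the 3 tested passed in edgeR (1 with an unadjusted p under 0.05). CCNE2, a cyclin that activates CDK2 at S phase entry, had 1.29, 1.25, 1.31 and 1.67 CPM in T288P+GDF11, 0.707, 0.584, 0.395 and 0.694 in M452I, 0.591, 0.910, 0.383 and 1.26 in T288P, and 0.487, 0.753, 0.450 and 1.07 in WT. The lowest GDF11 well lay just under the highest T288P well (log2 fold change 0.80 with SE 0.37, adjusted p = 0.164 in edgeR), and 37.0% of the exon bases of CCNE2 are shared with INTS8 on the opposite strand. E2F1, an activating E2F factor, had at most 1.19 CPM in any well and averaged 1.01 ± 0.15 CPM in T288P+GDF11 and 0.559 ± 0.242 in T288P, with no overlap of wells (log2 fold change 0.84 with SE 0.41, adjusted p = 0.19 in edgeR). CCNE1, the paralog of CCNE2, averaged 6.98 ± 0.90 and 6.83 ± 0.60 CPM (log2 fold change 0.03 with SE 0.16, adjusted p = 0.927 in edgeR).

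None of the 5 chromatin, histone and repair genes passed in edgeR (1 with an unadjusted p under 0.05). UNG, which removes uracil that the fork leaves in DNA, had 41.1, 42.0, 38.4 and 37.3 CPM in T288P+GDF11, 30.5, 31.0, 32.5 and 34.5 in M452I, 28.4, 37.0, 33.0 and 36.1 in T288P, and 29.1, 31.1, 32.3 and 33.6 in WT. All GDF11 wells lay above all untreated wells, by a small margin over T288P replicate 2 (log2 fold change against T288P 0.24, SE 0.09, edgeR adjusted p = 0.082). UHRF1, which brings DNA methyltransferase to new DNA, averaged 3.67 ± 0.75 CPM in T288P+GDF11 and 2.95 ± 0.34 in T288P. CHAF1A and CHAF1B, subunits of the assembly factor that puts histones on new DNA, averaged 6.52 ± 0.88 against 6.04 ± 1.15 and 9.26 ± 0.70 against 9.93 ± 0.84 CPM. SLBP, which stabilises replication-dependent histone mRNA, averaged 24.4 ± 1.46 and 24.4 ± 0.95 CPM. The log2 fold changes of UHRF1, CHAF1A, CHAF1B and SLBP were 0.31, 0.11, -0.10 and 0.00, with edgeR adjusted p of 0.452, 0.684, 0.604 and 0.994.

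No member was called in M452I against WT. EdgeR, DESeq2 and limma-voom each called 0 members, while 0.0238% of all tested genes were called. In edgeR 4 members had an unadjusted p under 0.05, against 6.3% of all tested genes. The smallest p was that of PCNA, with all M452I wells above all WT wells (log2 fold change 0.41 with SE 0.13, adjusted p = 0.727 in edgeR). The others under 0.05 were POLD1 (log2 fold change 0.25), GINS4 (-0.73) and TYMS (-0.60), with edgeR adjusted p of 0.782, 0.78 and 0.78. The wells of these 4 genes did not overlap, which 4.09% of all tested genes also showed. The median log2 fold change of the members was 0.06, against 0.03 over all tested genes. For MCM3 the log2 fold change was 0.28 with an interval of -0.31 to 0.87 (1.96 SE), and for RRM2 -0.11 with an interval of -0.39 to 0.16.

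No member was called in T288P against WT either, by edgeR, DESeq2 or limma-voom, while 0.0417% of all tested genes were called. In edgeR 3 members had an unadjusted p under 0.05, against 8.49% of all tested genes. The smallest p again belonged to PCNA (log2 fold change 0.47 with SE 0.13, adjusted p = 0.34 in edgeR), where T288P replicate 3 lay below WT replicate 4. POLD1 (log2 fold change 0.29, edgeR adjusted p = 0.533) and PRIM1 (-0.39, edgeR adjusted p = 0.58) followed. GMNN was the only member whose wells did not overlap, against 5.04% of all tested genes. The median log2 fold change was 0.07, against 0.02 over all tested genes. Both allele comparisons use the same 4 WT wells, so their PCNA levels enter both.

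The wells that stood apart bore on these counts. M452I replicate 4 was high in MCM3, MCM10, GINS1 and POLA1 and low in RRM2 for its group, with values between those of the other M452I wells and the T288P+GDF11 wells for MCM3, MCM10 and RRM2. T288P replicate 1 was low in MCM3, MCM10, GINS1, POLA1 and POLA2 and high in RRM2 for its group. Without both wells, MCM3 and PCNA were called higher and RRM2 lower in T288P against WT, with log2 fold changes of 0.68, 0.50 and -0.43 and edgeR adjusted p of 0.0441, 0.0437 and 0.00226, while 4.06% of 17212 tested genes were called. In M452I against WT, 0 members were called without them by edgeR (7 with an unadjusted p under 0.05). The shares over all 17212 tested genes are not given here for this comparison, so neither count is read as a result about the members. These wells were known to stand apart from earlier results of the same data. Calls of fits without them are therefore not independent of that choice. For MCM3 and RRM2, T288P replicate 1 lay toward the WT wells, so leaving it out widened the difference from WT.

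In M452I against T288P, edgeR, DESeq2 and limma-voom called 0 members, while 0.00596% of all tested genes were called. In edgeR 1 member, GINS4, had an unadjusted p under 0.05, against 2.18% of all tested genes. The median log2 fold change was 0.00, against 0.01 over all tested genes. GINS4 levels averaged 1.30 ± 0.45 CPM in M452I cultures and 2.45 ± 0.78 in T288P cultures (log2 fold change -0.91 with SE 0.32, adjusted p = 1.00 in edgeR). Without M452I replicate 4 and T288P replicate 1, RRM2 was called higher (log2 fold change 0.45, edgeR adjusted p = 0.00149) and MCM3 (-0.85, edgeR adjusted p = 0.00914), POLA1 (-0.60, edgeR adjusted p = 0.0447) and GINS4 lower in M452I, while 14.1% of all tested genes were called. For RRM2, MCM3 and POLA1 both of these wells lay toward the other group, so leaving them out widened the difference. These p-values are therefore not independent of the choice of wells.

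Set against WT, which differs in both the allele line and the ligand, T288P+GDF11 had 11 called members of 39 (28.2%), against 28.9% of all tested genes. Of the 39 members 10 were called higher, against 13.8% of all tested genes, and 1, RRM2, was called lower, against 15.1%. The groups of wells did not overlap for 16 members, against 35.1% of all tested genes. Wells were all higher for 13 of the 39 members, against 17.7% of all tested genes, and all lower for 3 of the 39, against 17.4%. The median log2 fold change was 0.08, against 0.02 over all tested genes. MCM3 was 2.85-fold higher (log2 1.51, SE 0.30, edgeR adjusted p = 0.00142), MCM10 2.52-fold (log2 1.33, SE 0.30, adjusted p = 0.00305 in edgeR) and PCNA 1.87-fold (log2 0.91, SE 0.13, edgeR adjusted p = 0.000100). RRM2 was 1.81-fold lower (log2 -0.86, SE 0.14, edgeR adjusted p = 0.000303). These 4 calls, and those of GMNN and UNG, held under all 18 alternatives.

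The other calls against WT were smaller. GINS1 had a log2 fold change of 0.80 (SE 0.25), POLA1 0.75 (SE 0.23), GMNN 0.48 (SE 0.12), MCM4 0.43 (SE 0.13), MCM6 0.39 (SE 0.13), POLD1 0.33 (SE 0.12) and UNG 0.33 (SE 0.09), with edgeR adjusted p of 0.00775 for GMNN to 0.0443 for POLD1. MCM6, a ring subunit, averaged 25.6 ± 2.55 CPM in T288P+GDF11 and 19.5 ± 2.69 in WT, and its wells overlapped. The MCM4 call was lost without WT replicate 1 (edgeR adjusted p = 0.0555), that of GINS1 without T288P+GDF11 replicate 1 or WT replicate 2 (at most 0.0789), that of POLA1 without T288P+GDF11 replicate 1, WT replicate 2 or WT replicate 4 (at most 0.0581), that of POLD1 under 8 of 18 alternatives (at most 0.147), and that of MCM6 under 6, namely the replicate block and without replicate 1 or 3 of T288P+GDF11 or replicate 1, 2 or 3 of WT (at most 0.108). Without T288P+GDF11 replicate 1, 7 members were called, against 21.8% of all tested genes. CCNE2 and E2F1 had log2 fold changes of 1.00 (SE 0.37) and 1.05 (SE 0.41) that edgeR did not call (adjusted p = 0.0515 and 0.0638). The 2 GDF11 comparisons share the same 4 GDF11 wells.

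A wider list of 46 replication genes outside the members, chosen like them with earlier results known, gave 5 calls higher and 3 lower for GDF11 against T288P (17.4%, against 12.9% of all tested genes; median log2 fold change 0.04). DUT, which keeps dUTP out of DNA, averaged 44.7 ± 4.80 CPM in T288P+GDF11 and 29.2 ± 1.498 in T288P (log2 fold change 0.62 with SE 0.10, adjusted p = 0.00104 in edgeR). CDC7, the kinase that fires loaded origins, averaged 5.51 ± 0.96 and 2.83 ± 0.63 CPM (log2 fold change 0.96 with SE 0.27, adjusted p = 0.0251 in edgeR). NASP, a histone chaperone, averaged 27.3 ± 1.77 and 21.2 ± 0.58 CPM (log2 fold change 0.37 with SE 0.09, adjusted p = 0.0104 in edgeR). Topoisomerase TOP1, which relaxes DNA ahead of the fork, averaged 217 ± 22.3 and 293 ± 39.5 CPM (log2 fold change -0.44 with SE 0.14, adjusted p = 0.0403 in edgeR). RRM2B, the p53-inducible relative of RRM2, was called in the other direction from RRM2, at 58.1 ± 7.99 CPM in T288P+GDF11 and 43.3 ± 5.46 in T288P (log2 fold change 0.43 with SE 0.12, adjusted p = 0.0271 in edgeR), and was singled out after its values were seen. The CDC7 and RRM2B calls were lost without T288P replicate 1 or 3 or replicate 1 or 3 of T288P+GDF11 (edgeR adjusted p of at most 0.0884 and 0.105), and that of TOP1 under 9 of 18 alternatives.

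Among 32 genes of G1/S control, 29 were tested, 1 was called higher (RBL1) and 3 lower for GDF11 against T288P (13.8%, against 12.9% of all tested genes), with a median log2 fold change of 0.05. The RBL1 call was lost under 9 of 18 alternatives. FBXW7, part of the ligase that degrades cyclin E, averaged 48.3 ± 4.39 CPM in T288P+GDF11 and 69.0 ± 4.94 in T288P (log2 fold change -0.51 with SE 0.09, adjusted p = 0.00104 in edgeR). The CDK inhibitor CDKN1C averaged 16.8 ± 2.18 and 25 ± 2.74 CPM (log2 fold change -0.57 with SE 0.12, adjusted p = 0.00462 in edgeR). CDKN1A, CDKN1B and CDKN2D, also CDK inhibitors, lay lower in all GDF11 wells than in all T288P wells without passing, with log2 fold changes of -0.46 (SE 0.17) for CDKN1A, -0.27 (SE 0.12) for CDKN1B and -0.64 (SE 0.23) for CDKN2D, and edgeR adjusted p of 0.0801, 0.153 and 0.0728. CDKN2A had no count in any library, and CDKN2B, an inhibitor that TGF-beta induces in other epithelial cells, had at most 2 counts in any library. MYC averaged 362 ± 30.0 CPM in T288P+GDF11 and 304 ± 41.9 in T288P, and CCND1 127 ± 6.005 and 139 ± 11.3, with edgeR adjusted p of 0.282 and 0.331. Against WT, CDKN1A, CDKN1B, CDKN1C and CDKN2D were all called lower in T288P+GDF11 and MYC higher, among 5 calls higher and 8 lower in this list (44.8%, against 28.9% of all tested genes). The MYC call was lost without T288P+GDF11 replicate 1 or 2 or WT replicate 1 or 2 (edgeR adjusted p of at most 0.0616).

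Genes of G2 and mitosis, set beside the members as the other proliferation genes, gave 1 call higher and 3 lower of 30 for GDF11 against T288P (13.3%, against 12.9% of all tested genes), with a median log2 fold change of -0.05. Against WT they gave 1 higher and 10 lower (36.7%, against 28.9% of all tested genes), with a median of -0.18. The difference between the lists was not tested. MKI67, the proliferation marker of cycling cells, averaged 44.4 ± 8.79 CPM in T288P+GDF11, 54.9 ± 8.20 in M452I, 58.9 ± 5.03 in T288P and 73.1 ± 9.02 in WT. It was called lower in T288P+GDF11 against WT (log2 fold change -0.72 with SE 0.14, adjusted p = 0.000897 in edgeR) and did not pass against T288P (log2 fold change -0.41 with SE 0.14, adjusted p = 0.056 in edgeR). In the same comparison with WT, MCM3, MCM10 and PCNA were called higher and RRM2 lower.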

How the data were processed

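The authors deposited raw counts per gene, as whole numbers without normalization, from poly(A)-selected, paired-end reads of 16 libraries. The submitters' processing notes name StringTie 2.2.1, HISAT2 without a version, and build GRCh38. How reads were counted, with which annotation and whether by strand, is not given in the sources used here, and 0 columns of values were left unused.

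All 16 libraries entered 1 edgeR 4.0.16 model (R 4.3.3) with TMM normalization, filterByExpr (minimum count 10) and robust quasi-likelihood F tests without covariates. P-values were adjusted by Benjamini-Hochberg over 16790 genes, and genes were called at an adjusted p under 0.05. SE is the size of the log2 fold change over the root of its F value. CPM levels use the TMM factors. Coordinates and exon lengths (the union of all annotated exons of a gene) are from GENCODE on GRCh38, and promoters from RefSeq (GRCh38.p14).

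Alternatives were DESeq2 1.42.0, limma-voom (limma 3.58.1), RLE and upper-quartile normalization, no filter, a stricter filter (50 counts in 4 libraries), a fit of the 2 groups alone, a block for the replicate number, the ribosomal protein share as a covariate, and libraries left out. The members and lists were chosen with earlier results of these data known. Per-well values are given for up to 3 called members of each role group by smallest adjusted p, or, with no call, the member with the smallest p. Named beside them are up to 4 called genes of the wider replication and G1/S control lists, and CDKN1A, CDKN2B, MYC, CCND1, MKI67 and PCSK5. Deviations of same-numbered wells of different groups correlated at r -0.266 to 0.263 over 24 pairs (4 above 0.1), and the main fit did not pair wells. With 4 wells per group this check cannot exclude a shared effect of the replicate number. Of the 9 flagged sets described below, 8 fell on a replicate 4.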

Additional observations from a re-analysis of the deposited data

Results flagged for a closer look

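In 9 of 156 sets of 4 wells tested (39 genes in 4 conditions), the highest or the lowest well stood far from the other 3, and chance gives about 1 in 20 (7.8). M452I replicate 4 accounted for 4 of the 9. It held 3.02 CPM of MCM10 against 1.10 to 1.36 CPM in the other M452I wells, 5.40 CPM of UHRF1 against 2.36 to 2.69, 59.8 CPM of RRM2 against 92.5 to 96.1, and 8.51 CPM of RFC2 against 13.3 to 13.4. T288P replicate 1 held 4.47 CPM of MCM3 against 8.42 to 8.99 CPM in the other T288P wells.

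The other 4 sets fell on 3 wells numbered 4 in their groups, so 8 of the 9 fell on a replicate 4. T288P+GDF11 replicate 4 held 1.67 CPM of CCNE2 against 1.25 to 1.31 CPM, and T288P replicate 4 held 24.7 CPM of MCM7 against 25.7 to 25.8. WT replicate 4 held 3.41 CPM of GINS4 against 1.66 to 1.84 CPM, and 1.53 CPM of POLA2 against 3.81 to 3.87.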

How the results depend on the processing

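For GDF11 against T288P, 4 members were called, and 7 with DESeq2 (19.3% of all genes then), 2 without a low-count filter (3.58%), 10 with ribosomal protein share added to the model (29.2% of all genes then) and 1 to 6 with a well left out. The count was 1 without T288P replicate 1 (MCM10), 2 without T288P replicate 3 or replicate 1 or 3 of T288P+GDF11 (MCM10 and RRM2), and 6 without T288P replicate 2. Leaving out T288P replicate 1 together with M452I replicate 4 gave 3 (MCM3, MCM10 and RRM2), with PCNA no longer called. For GDF11 against WT, 11 were called, 17 with the ribosomal covariate (44.8% of all genes then) and 7 to 11 with a well left out; the median log2 fold change of 0.08 was 0.153 with upper-quartile normalization and 0.0766 to 0.150 with a well left out. For T288P against WT, the ribosomal covariate gave 1 call (RRM2 lower), and leaving out M452I replicate 4 and T288P replicate 1 together gave 3. Leaving out both wells gave 4 calls for M452I against T288P. No other alternative gave a call in the allele comparisons. With the replicate number as a block, 3 members were called for GDF11 against T288P, without PCNA, 11 for GDF11 against WT, and 0 in the allele comparisons. Counts that have no share of all tested genes beside them are not read as results about the members. For M452I against T288P, 2 genes changed sign with the ribosomal covariate, TOP1 at -0.00421 and CDKN1A at -0.0203, and of 65 pairs of a gene and a comparison never called under any setting, 32 changed sign under an alternative. The cause of these shifts was not tested. For GDF11 against T288P the SE was 0.41 for E2F1 and 0.37 for CCNE2, both near 1 CPM, and 0.30 for MCM10 and MCM3. How far depth sets these errors was not tested.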
